A study of Homo sapiens with 32 samples.

Results

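The cadherins and nonclustered protocadherins are the genes whose symbol is CDH or PCDH followed by a number alone, and 34 of the 28278 gene symbols in the count tables met this rule, 23 of them cadherins and 11 protocadherins. The same 34 genes were found by Ensembl identifier among the 60107 genes of the knockdown table. The rule used names only, and no measured value. Clustered protocadherins, whose symbols carry further letters, did not enter, nor did desmogleins, desmocollins or the large cadherins known by other names. Any nonclustered gene whose symbol has a letter after the number stayed out too, so the structural groups used here need not be complete.

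RNA was sequenced from lines of Ewing sarcoma, a tumor of bone and soft tissue, that have or lack STAG2, a subunit of the cohesin complex that shapes chromatin loops and is lost by mutation in a share of these tumors. A673, the line behind 28 of the 32 libraries, carries the EWS::FLI1 fusion that drives the disease. Its controls were the unmodified parental line (WT-Parental, 1 library in each of experiments 1 to 3) and the clone WT, which holds a doxycycline-inducible Cas9 at the AAVS1 locus (genotype iCas9) with 2 libraries in experiment 1, 2 in experiment 2 and 1 in experiment 3. Every knockout (KO) clone of A673 descends from that single WT clone and so also carries iCas9. These were STAG2 KO (2 libraries in experiment 1, 3 in experiment 2), EZH2 KO and SUZ12 KO (3 each, experiment 2) and STAG1 KO (3, experiment 3). EZH2 and SUZ12 are core subunits of Polycomb repressive complex 2 (PRC2), which silences genes by methylating histones, and STAG1 is the alternative to STAG2 in cohesin. In experiment 4, 3 libraries came from cells transfected with siRNA against STAG2 (siSTAG2) and 3 from cells labelled WT. The study describes the latter as mock transfected, and they are called mock here. Of the isogenic pairs, SK-N-MC was compared as iCas9 cells (WT) and iCas9 cells with STAG2 KO, and A4573, a line that lacks STAG2, as iCas9 cells (WT) and cells in which STAG2 was restored by knock-in (KI), with 1 library in each arm.

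Cadherins are calcium-dependent adhesion proteins whose extracellular repeats bind the same or a related cadherin on the neighbouring cell. The classical cadherins of type I (such as E-cadherin and N-cadherin) and type II hold catenins on the inner side of the membrane, and through them the actin cytoskeleton. Nonclustered protocadherins of the delta-1 and delta-2 groups bind more weakly, are best known from the developing nervous system, and have been linked to cell sorting, migration and signalling.

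Transcription start regions are shown for 6 members whose levels moved furthest or together in the comparisons that follow. The window is the 250 bases before the RefSeq start on GRCh38.p14, written 5′ to 3′ along the gene's strand without any base inside an exon annotated in GENCODE 44, and every CG dinucleotide is in capitals. PCDH17 (chr13:57631494-57631743, + strand) and PCDH9 (chr13:67230446-67230586, − strand) are the pair that rose without STAG2 in A673 cells, and both lie on chromosome 13.
PCDH17: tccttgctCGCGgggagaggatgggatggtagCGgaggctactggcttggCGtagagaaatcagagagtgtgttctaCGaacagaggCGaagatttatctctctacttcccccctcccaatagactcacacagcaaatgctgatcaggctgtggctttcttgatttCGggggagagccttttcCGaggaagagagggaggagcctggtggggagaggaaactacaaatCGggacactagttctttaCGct
PCDH9: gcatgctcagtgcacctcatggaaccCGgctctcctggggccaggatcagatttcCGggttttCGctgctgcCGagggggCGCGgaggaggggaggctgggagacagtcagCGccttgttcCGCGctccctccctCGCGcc
PCDH8 (chr13:52848642-52848890, − strand), on the same chromosome, fell in STAG2 KO clones and rose in PRC2 KO clones. CDH20 (chr18:61333180-61333429, + strand) and PCDH15 (chr10:54801292-54801481, − strand) were at or near 0 in the controls and had higher counts in PRC2 KO clones. The PCDH15 window lies inside the annotated gene, which spans from 53802771 to 55627942, so it is not at the outermost annotated start.
PCDH8: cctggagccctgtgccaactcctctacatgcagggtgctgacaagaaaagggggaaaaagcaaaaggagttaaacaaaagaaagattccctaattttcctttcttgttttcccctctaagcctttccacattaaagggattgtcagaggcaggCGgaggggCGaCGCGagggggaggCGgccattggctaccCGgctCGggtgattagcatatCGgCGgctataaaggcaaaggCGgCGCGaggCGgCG
CDH20: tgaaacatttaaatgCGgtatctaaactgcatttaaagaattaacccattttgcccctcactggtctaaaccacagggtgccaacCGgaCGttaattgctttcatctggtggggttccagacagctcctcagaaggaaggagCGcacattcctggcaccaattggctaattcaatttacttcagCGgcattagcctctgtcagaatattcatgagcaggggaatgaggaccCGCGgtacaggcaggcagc
PCDH15: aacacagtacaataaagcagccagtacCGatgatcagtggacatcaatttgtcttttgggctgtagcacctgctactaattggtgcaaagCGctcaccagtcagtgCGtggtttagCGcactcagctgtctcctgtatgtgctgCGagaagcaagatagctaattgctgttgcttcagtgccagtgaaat
CDH2 (chr18:28177131-28177380, − strand), the N-cadherin gene, fell in PRC2 KO clones. Its window also lies inside the annotated gene, which spans from 27932879 to 28177946.
CDH2: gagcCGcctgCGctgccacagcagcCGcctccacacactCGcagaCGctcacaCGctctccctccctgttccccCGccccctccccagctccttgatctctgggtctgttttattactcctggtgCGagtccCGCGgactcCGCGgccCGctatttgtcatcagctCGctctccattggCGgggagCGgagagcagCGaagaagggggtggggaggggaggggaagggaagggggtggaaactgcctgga
Windows of 300 bases (250 before and 50 after the start) were found in the RefSeq table for 21 of the 34 members. CG occurred 11 times in that of PCDH17, 20 times in those of PCDH9 and PCDH8, 23 times in CDH2, 13 times in CDH20 and 8 times in PCDH15, against a median of 14 over 35116 promoters. The letters GGAA or their reverse complement TTCC, the core that ETS factors such as FLI1 read, were in 95.5% of all 35116 windows. GGAA in a tandem run of at least 2 units on either strand was in 3.7% of them, and among the 21 members in the windows of CDH7 (a run of 3) and PCDH18 (a run of 2). These counts describe letters only, and no binding was measured.

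The 22 libraries of A673 clones and parental cells held 15734628 to 20663679 counts, the 4 isogenic libraries 29322507 to 32261248, and 6852340 to 8184632 reads per library were recovered for the knockdown. Counts were scaled to the size of each library by TMM and are given as CPM.
STAG2 transcripts were 292 ± 32.0 CPM (SD, n = 6) in the controls and 85.1 ± 58.3 CPM (n = 5) in STAG2 KO libraries, of which the library numbered 24 in experiment 1 stood apart at 188 CPM. EZH2 fell from 174 to 43.5 CPM in EZH2 KO and SUZ12 from 60.3 to 15.9 CPM in SUZ12 KO. STAG1 did not pass its test in STAG1 KO (adjusted p = 0.376 from edgeR), and the library numbered 1 held 61.9 CPM against 57.1 and 68.2 CPM in its controls. The STAG2 KO library numbered 5 in experiment 2 also stood apart from the other STAG2 KO libraries, with a mean chi-square per gene of 113 and 140 against them, while these differed by 25.7. Both WT clone libraries of experiment 1 differed by 1.33, where sampling alone gives about 1, and they were kept as 2 libraries. Of 6 Ewing sarcoma markers, 5 were detected in every group, with a sum of 669 to 803 CPM in the controls of experiments 1 and 2. The sixth, CD99, was listed at 0 in every count library and was detected in every library of the knockdown.

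A673 cells expressed a mixed set of classical cadherins and protocadherins, led by PCDH7, CDH11 and CDH24, while E-cadherin was close to absent. Levels of different genes were compared as CPM per kb of annotated exon. In the 6 controls of experiments 1 and 2, PCDH7, a delta-1 protocadherin, had the highest level at 34.3 ± 4.82 CPM per kb (SD, n = 6). CDH11, the mesenchymal OB-cadherin of type II, followed at 26.9 ± 4.22 CPM per kb, and CDH24, another type II cadherin, at 19.2 ± 3.12 CPM per kb. N-cadherin (CDH2), of type I, stood at 14.6 ± 1.93 CPM per kb and the delta-2 member PCDH17 at 12.7 ± 2.84 CPM per kb, and this last pair did not differ beyond the SD of either. PCDH7 and CDH11, and CDH24 and CDH2, also lay less than the sum of their SDs apart, while CDH11 and CDH24 lay just more than that apart.
The other members spread over a wide range. In every one of these controls 12 members had over 100 counts, namely CDH2, CDH4, CDH8, CDH11, CDH12, CDH23, CDH24, PCDH7, PCDH10, PCDH17, PCDH18 and PCDH20. At the other end 9 members had at most 3 counts in each of them. These were CDH1, CDH9, CDH16, CDH17, CDH18, CDH19, CDH20, CDH22 and PCDH15. CDH9 and CDH16 were at 0 in all 26 count libraries, and CDH1, the epithelial E-cadherin, had at most 1 count in any A673 library apart from 10 counts in SUZ12 KO clone 2.
The order differed between the lines. In SK-N-MC WT cells CDH24 came first at 26.2 CPM per kb and CDH11 next at 23.8 CPM per kb, while CDH2 had 1 count. In A4573 WT cells CDH11 (7.79 CPM per kb), PCDH7 (7.54) and CDH2 (6.65) led, and PCDH17 was at 0. With 1 library for each state of these lines, the differences between lines have no replicate check.

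**Figure D1:**
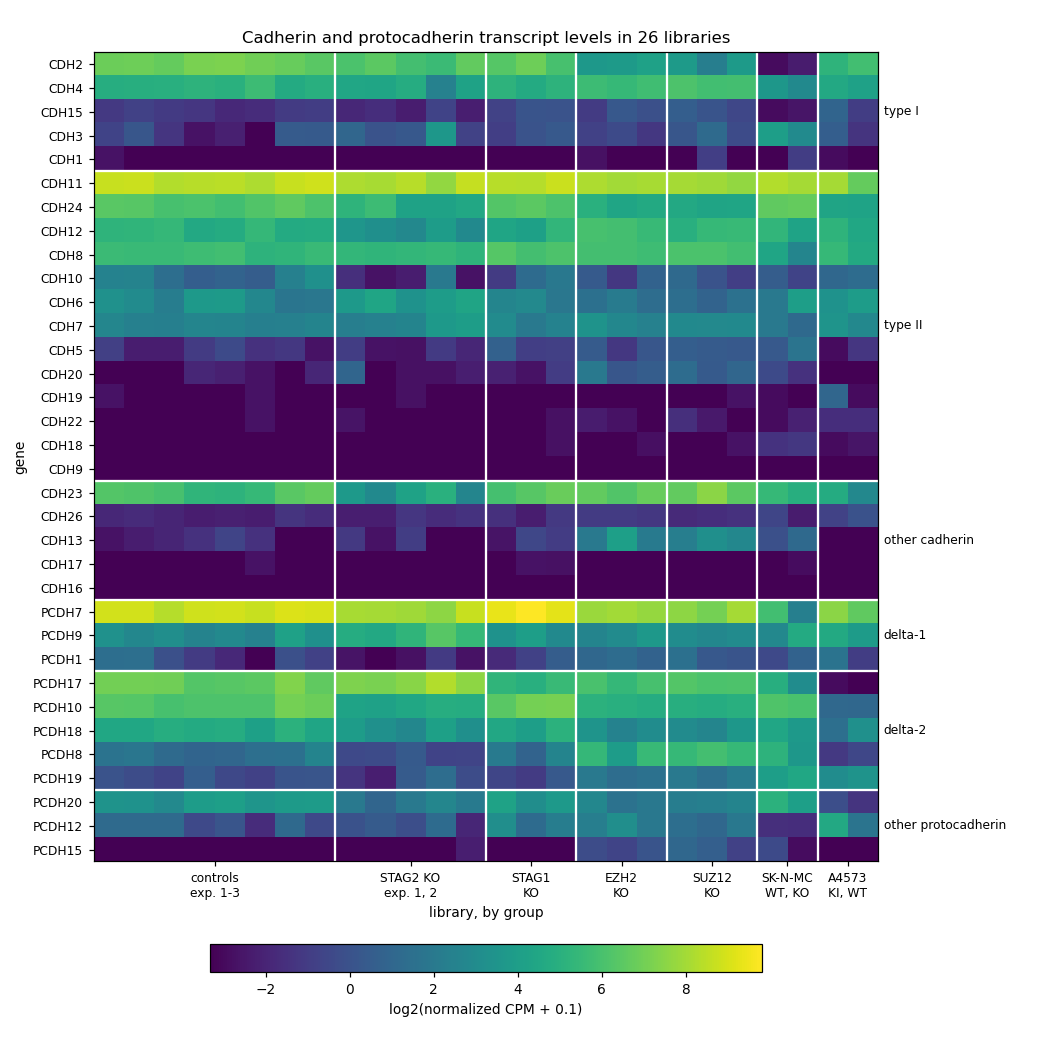
Level of each of the 34 members (rows, by structural group) in each of the 26 count libraries (columns, by group), as log2(normalized CPM + 0.1), where A673 and isogenic libraries were scaled separately. PCDH7 and CDH11 are bright in all A673 columns, CDH9 and CDH16 are at 0 throughout, and CDH2 is dark in SK-N-MC and PCDH17 in A4573 cells.

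The first comparison asked which members differ between A673 clones with and without STAG2. Without STAG2, PCDH9 and PCDH17 rose, and 9 other members fell, among them N-cadherin, CDH24, CDH12 and 3 delta-2 protocadherins. Of 34 members 21 passed the filter on low counts, and 11 of the 21 were called by edgeR's quasi-likelihood test at an adjusted p under 0.05, where 12.2% of all 14215 genes tested were called. The 2 higher stand against 5.87% of genes called higher, and the 9 lower against 6.34% called lower. The median log2 fold change over the 21 members was −0.82, and that over all genes tested 0.011. By structural group, 1 of 3 type I and 2 of 7 type II cadherins tested fell, as did CDH23. Among the protocadherins 1 of 3 delta-1 members rose and 1 fell, and 1 of 5 delta-2 members rose and 3 fell. A library is a mixture of cells, so fewer cells with a transcript and less of it per cell cannot be told apart here.

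PCDH9, a delta-1 protocadherin, had the largest rise. It was at 5.38 at the lowest, 6.98 at the median and 9.88 at the highest CPM in the 6 controls, at 28.0 and 23.998 CPM in the STAG2 KO libraries 5 and 24 of experiment 1, and at 44.8, 38.2 and 85.1 CPM in clones 2, 3 and 5 of experiment 2. The groups did not overlap, and the mean rose from 7.31 ± 1.77 (SD, n = 6) to 44.02 ± 24.4 CPM (n = 5; log2 fold change 2.47, standard error 0.336, adjusted p = 0.000981). The log2 fold change was 1.57 within experiment 1 and 3.19 within experiment 2, and passed the test in both.
PCDH17, a delta-2 protocadherin, was at 79.5 at the lowest, 108 at the median and 131 at the highest CPM in the controls, at 154 and 143 CPM in the STAG2 KO libraries of experiment 1 and at 189, 176 and 312 CPM in clones 2, 3 and 5 of experiment 2. Every STAG2 KO library lay above every control (log2 fold change 0.85, standard error 0.233, adjusted p = 0.0369). The rise came mainly from experiment 2, with log2 fold changes of 0.17 within experiment 1 and 1.39 within experiment 2 (adjusted p = 0.21 and 0.0323, edgeR). Its call was lost in experiment 1 alone, with the WT clone as the only control (log2 fold change 0.85), and without any 1 of the 3 controls or STAG2 KO clones 2 or 3 of experiment 2, where the value stayed between 0.74 and 0.87.

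Among the classical cadherins, CDH2 (N-cadherin, of neural and mesenchymal cells) was at 103 at the lowest, 123 at the median and 147 at the highest CPM in the controls, at 69.0 and 89.1 CPM in the KO libraries of experiment 1 and at 102, 58.4 and 49.1 CPM in those of experiment 2 (clones 2, 3 and 5). The highest KO library lay just under the lowest control (log2 fold change −0.82, standard error 0.186, adjusted p = 0.0156). CDH24, of type II, fell from 72.1 ± 11.7 CPM (SD, n = 6) to 36.9 and 51.2 CPM in the KO libraries of experiment 1 and 23.1, 18.8 and 19.1 CPM in those of experiment 2, with no overlap (log2 fold change −1.35, standard error 0.193, adjusted p = 0.00134). CDH12, a type II cadherin of the brain, fell from 35.5 ± 8.10 CPM to 11.98 and 9.11 CPM and 7.41, 6.79 and 15.5 CPM in the same order (log2 fold change −1.81, standard error 0.251, adjusted p = 0.00108).
All 3 genes had a negative log2 fold change in both experiments. The log2 fold changes of CDH2 were −0.56 within experiment 1 and −1.01 within experiment 2, those of CDH24 −0.86 within experiment 1 and −1.73 within experiment 2, and those of CDH12 −1.94 within experiment 1 and −1.68 within experiment 2. In experiment 2 alone CDH2 (adjusted p = 0.0809, edgeR) and CDH12 (0.0631) missed the threshold, and CDH24 did not.
CDH23, an unusually long cadherin that forms the tip links of inner ear hair cells, was at 36.1 at the lowest, 53.8 at the median and 77.5 at the highest CPM in the controls, at 13.05 and 7.38 CPM in the KO libraries of experiment 1 and at 6.24, 19.2 and 32.7 CPM in clones 2, 3 and 5 of experiment 2. No KO library reached the lowest control (log2 fold change −1.81, standard error 0.451, adjusted p = 0.0241). The log2 fold change was −2.84 within experiment 1 and −1.03 within experiment 2, and the call was lost within experiment 2, without either KO library of experiment 1 (−1.66 without library 5 and −1.48 without library 24) and with the WT clone as the only control. CDH23 shares 3505 exonic bases with C10orf105 on the opposite strand, and the reads carry no strand, so reads of these genes cannot be told apart.

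The delta-2 protocadherins fell in the majority. PCDH10 had the smallest adjusted p of all members. It was at 63.8 at the lowest, 70.9 at the median and 85.7 at the highest CPM in the controls, at 19.6 and 18.1 CPM in the KO libraries of experiment 1 and at 27.7, 22.7 and 28.8 CPM in clones 2, 3 and 5 of experiment 2, far from overlap (log2 fold change −1.72, standard error 0.142, adjusted p = 5.41e-05). The fall held within each experiment, with −2.06 within experiment 1 and −1.44 within experiment 2.
PCDH18 fell from 24.4 ± 4.30 CPM (SD, n = 6) to 15.1 and 9.52 CPM in experiment 1 and 9.09, 6.58 and 17.6 CPM in experiment 2, where clone 5 ended just below the lowest control at 17.9 CPM (log2 fold change −1.11, standard error 0.257, adjusted p = 0.017). PCDH8, a protocadherin induced by neural activity, was low in all A673 controls at 2.53 ± 0.657 CPM and lower still in the KO libraries, at 0.652 and 0.692 CPM and 0.557, 1.22 and 0.532 CPM (log2 fold change −1.78, standard error 0.329, adjusted p = 0.0054). Within experiments the values were −1.05 within experiment 1 and −1.12 within experiment 2 for PCDH18, and −2.15 within experiment 1 and −1.48 within experiment 2 for PCDH8, and in experiment 2 alone neither passed.
PCDH20, which belongs to neither delta group, fell from 11.9 ± 3.47 to 4.02 ± 1.65 CPM (n = 6 and 5; log2 fold change −1.68, standard error 0.254, adjusted p = 0.00184), and every KO library lay below the lowest control, at 7.18 CPM. It shares 4659 exonic bases with another annotated gene model (ENSG00000197991) on its own strand. PCDH7, the member with the highest level, was the only one called whose groups overlapped, with 273 and 262 CPM and 426, 242 and 189 CPM in the KO libraries and 328 to 484 CPM in the controls (log2 fold change −0.72, standard error 0.194, adjusted p = 0.0343). It kept its call in only 9 of 19 alternative settings. The call was lost without any 1 of the WT clone libraries of both experiments, the parental library of experiment 2, the KO libraries 5 and 24 of experiment 1 and KO clone 3 of experiment 2 (log2 fold changes −0.66 to −0.75), in experiment 2 alone, and when both WT clone libraries of experiment 1 were added into 1.
Members that were tested and missed the threshold included CDH11 (−0.27, adjusted p = 0.379 from edgeR), CDH4 (−0.93, 0.0998), CDH8 (−0.30, 0.14) and CDH6 (0.71, 0.163) in log2 fold change. CDH3 (P-cadherin) had the largest fitted value that was not called (3.58, adjusted p = 0.0911). It stood at 12.2 CPM in clone 5 of experiment 2 and at 0.502 to 1.90 CPM in the other 4 KO libraries. Without clone 5 of experiment 2, 15 members were called, among them all 11, while the genes called in all rose from 1736 to 4219. Without the KO library 24, the one with the most STAG2 transcripts, 9 of the 11 were called. Experiment 1 alone gave 13 and experiment 2 alone 5.

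**Figure D2:**
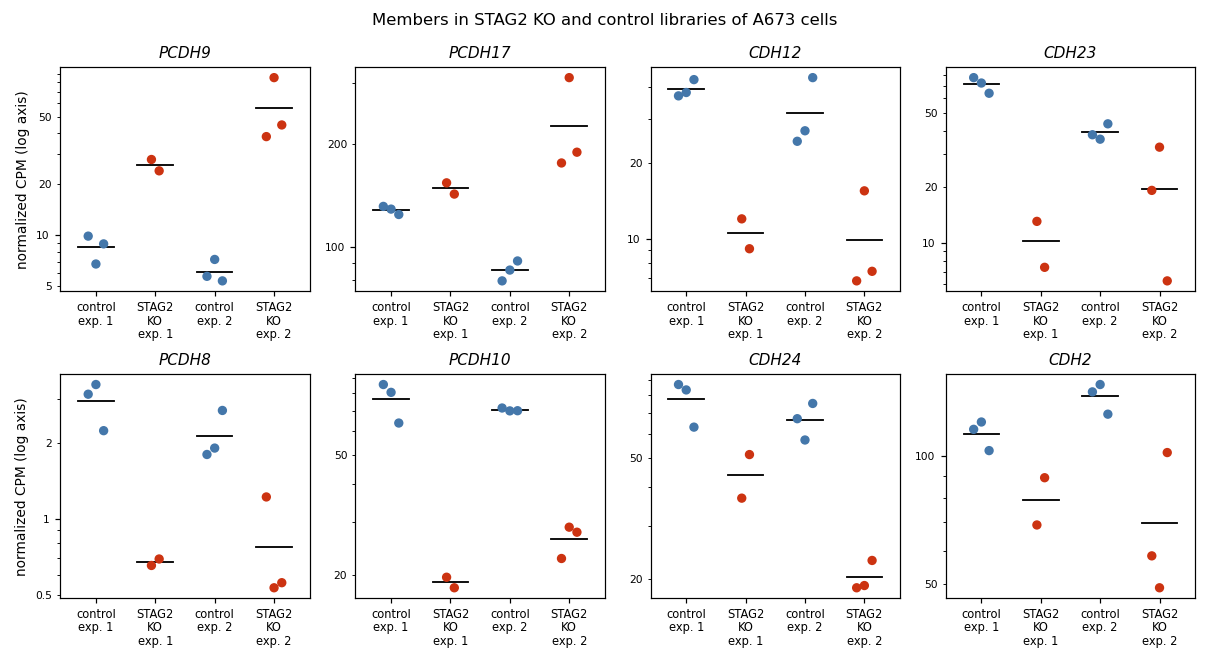
Normalized CPM (log axes) of 8 members in single libraries of A673 cells, controls in blue and STAG2 KO in red, with experiments 1 and 2 apart and a black line at each mean. PCDH9 and PCDH17 lie higher and the other 6 lower in STAG2 KO libraries than in controls.

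The knockdown asked the same question with a transient loss of STAG2 and shares no library with the KO clones. After siSTAG2, PCDH9 and PCDH17 rose again and 8 members fell. STAG2 itself went from 1050.0 to 159 normalized reads. Of 34 members 15 reached the minimum mean of 10 normalized reads, and limma called 10 of them, against 20.5% of 12060 genes tested. For the 2 higher the share of all genes is 9.54%, and for the 8 lower 11%. The median log2 fold change was −0.32 over the 15 members and 0.0066 over all genes tested. Fold changes here are on the scale of log2(value + 1).
PCDH17 was at 1175, 1134 and 1092 normalized reads in mock replicates 1 to 3 and at 2230.0, 2103 and 2184 in siSTAG2 replicates 1 to 3, with a wide gap between the groups (log2 fold change 0.94, standard error 0.0586, adjusted p = 4.01e-12). PCDH9 was at 65.8, 69.9 and 70.8 and 186, 185 and 155 normalized reads, also without overlap (log2 fold change 1.33, standard error 0.131, adjusted p = 1.84e-08).
Among those that fell, CDH4 (R-cadherin, of retina and brain) had the smallest adjusted p. It went from 263, 249.96 and 250.03 to 176, 137 and 124.6 normalized reads (log2 fold change −0.81, standard error 0.115, adjusted p = 8.19e-06). CDH23 went from 193, 169 and 138 to 81.0, 97.4 and 100.5 (log2 fold change −0.83, standard error 0.137, adjusted p = 6.74e-05), and PCDH10 from 259, 237 and 260.4 to 141, 176 and 161 (log2 fold change −0.66, standard error 0.105, adjusted p = 3.9e-05). None of these groups overlapped.
PCDH7, the member with the most reads in mock libraries, fell from 2133, 2228 and 2094 to 1758, 1706 and 1695 normalized reads (log2 fold change −0.32, standard error 0.0565, adjusted p = 0.000145), and CDH11 from 301, 255 and 316 to 202, 210.5 and 204 (log2 fold change −0.49, standard error 0.0972, adjusted p = 0.000545). CDH24 (log2 fold change −0.62, standard error 0.194, adjusted p = 0.0242), PCDH18 (log2 fold change −0.85, standard error 0.228, adjusted p = 0.00841) and CDH8, a type II cadherin of neurons (log2 fold change −0.30, standard error 0.0833, adjusted p = 0.0112), completed the 8. The call of CDH24 was lost without any of 4 single libraries (mock 1 or 3, siSTAG2 1 or 2, log2 fold changes −0.54 to −0.61), that of CDH8 without mock 3 (−0.26) and that of PCDH18 without siSTAG2 1 (−0.60).
N-cadherin was not called after the knockdown. CDH2 was at 715, 670.2 and 808 normalized reads in mock and 782, 779.7 and 873 in siSTAG2 libraries, and the groups overlapped (log2 fold change 0.15, standard error 0.0740, adjusted p = 0.153). CDH12 was lower in all 3 siSTAG2 libraries and missed the threshold (log2 fold change −0.58, standard error 0.241, adjusted p = 0.0922). Whether the KO and the knockdown differ in these genes was not tested. In all, 7 members were called in both, each in the same direction, which is 7 of the 11 called in KO clones and 7 of the 10 called after knockdown. Of the 15 members tested in both fits these 7 were 46.7%, while of all 11183 genes tested in both 671 were called in both (6%), 661 of them in the same direction (5.91%). They were PCDH9 and PCDH17, higher, and CDH23, CDH24, PCDH7, PCDH10 and PCDH18, lower. PCDH8 and PCDH20 were below the minimum in the knockdown, at up to 6.25 and 6.49 normalized reads. Whether reads of PCDH20 were assigned there to the gene model that shares its exonic bases was not tested.

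**Figure D3:**
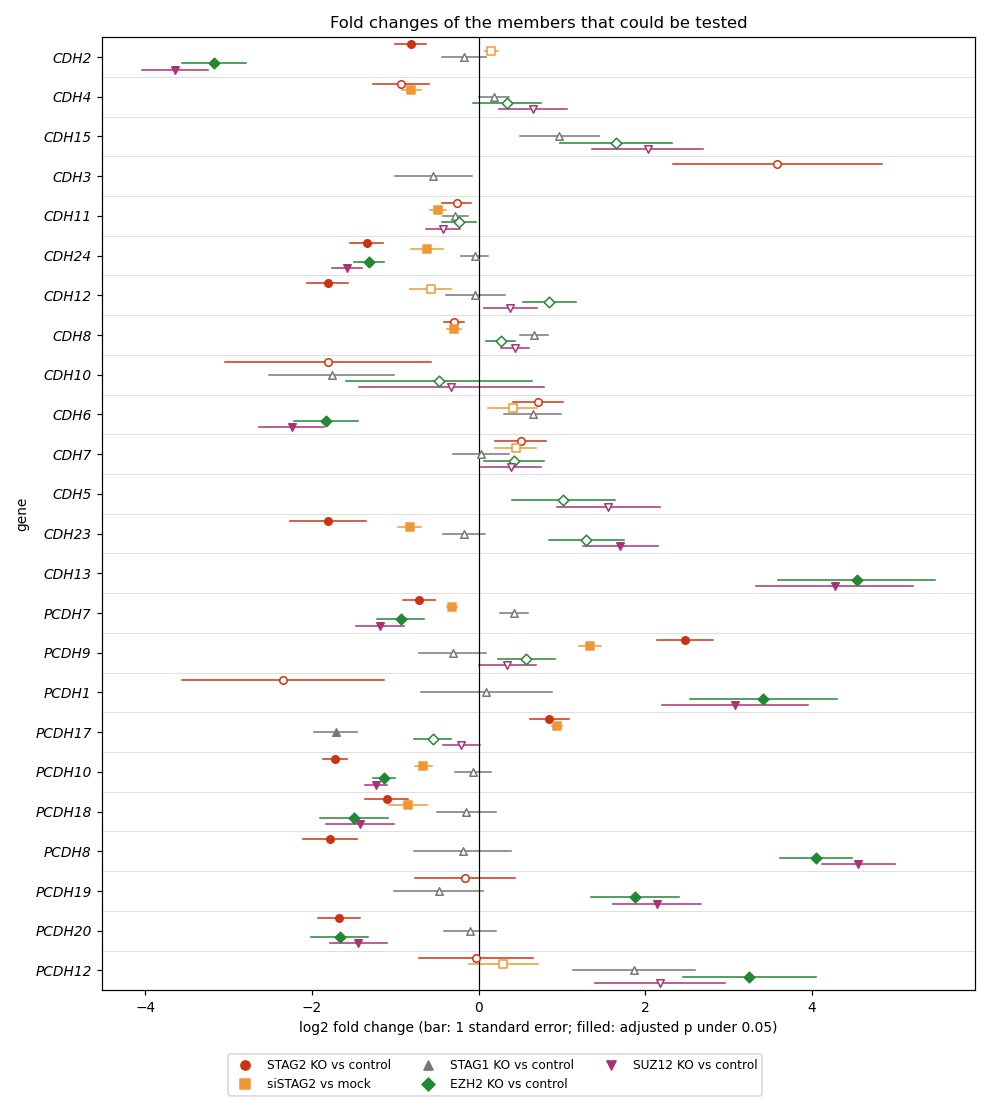
Log2 fold change (points, with bars of 1 standard error) of the members tested, for STAG2 KO, siSTAG2, STAG1 KO, EZH2 KO and SUZ12 KO against their controls, filled where the adjusted p was under 0.05. PCDH9 lies to the right for both STAG2 comparisons, PCDH8 and CDH13 lie far to the right for both PRC2 comparisons, and CDH3, CDH20 and PCDH15 are left out for the latter because their controls held at most 3 counts per library. CDH13 and PCDH1 are drawn filled for the PRC2 comparisons, but passed the filter on low counts only through KO libraries, so their fill is not read as a result.

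PCDH8, PCDH17, PCDH20 and PCDH9 lie in this order on the long arm of chromosome 13, and are given together for their position. PCDH8 (ENSG00000136099) spans from 52842889 to 52848641 on the − strand and PCDH17 (ENSG00000118946) from 57631744 to 57729311 on the + strand. PCDH20 (ENSG00000280165) spans from 61409685 to 61415849 on the − strand and PCDH9 (ENSG00000184226) from 66302834 to 67230445 on the − strand, all on GRCh38. All 4 were called in STAG2 KO cells, and they did not share a direction, with log2 fold changes of −1.78, 0.85, −1.68 and 2.47 along the chromosome. PCDH10 (chromosome 4 from 133149294 to 133208606 on the + strand) and PCDH18 (chromosome 4 from 137518918 to 137532494 on the − strand), both on chromosome 4, fell together.

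STAG1 KO addressed whether loss of the other STAG subunit moves the same genes. In STAG1 KO cells PCDH17 fell, the reverse of its direction without STAG2, and no other member passed the test. PCDH17 was at 97.0 and 159 CPM in the WT clone and the parental library and at 39.1, 31.0 and 48.1 CPM in STAG1 KO libraries 1, 5 and 7, without overlap (log2 fold change −1.72, standard error 0.256, adjusted p = 0.0274). It was the only one called of 22 members tested, where edgeR called 5.27% of 14373 genes, 2.5% as lower, and 4 members had an unadjusted p under 0.05. DESeq2 called 2 members. The call of PCDH17 rests on few libraries and was lost without the parental library, without the WT clone library and without STAG1 KO library 5 (log2 fold changes −1.32, −2.03 and −1.56), though not without library 1, in which STAG1 was at the level of the controls.
PCDH9, the other riser without STAG2, was at 10.2, 16.2 and 7.42 CPM in STAG1 KO libraries and at 9.47 and 18.2 CPM in their controls (log2 fold change −0.31, standard error 0.406, adjusted p = 0.675). CDH8 was at 80.1, 58.5 and 70.6 CPM against 48.5 and 38.8 CPM, higher in all 3, and missed the threshold (log2 fold change 0.66, standard error 0.168, adjusted p = 0.0788). PCDH7 likewise lay above both controls in all 3 STAG1 KO libraries (log2 fold change 0.42, standard error 0.169, adjusted p = 0.194).

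The response to STAG2 KO was then set directly against that to STAG1 KO, as a difference of both effects in 1 fit with the experiment as a term. Of 23 members tested 7 differed, against 6.01% of 15041 genes, with 2 differences positive (2.27% of genes) and 5 negative (3.74%). The difference was positive for PCDH9 (2.77 in log2, standard error 0.584, adjusted p = 0.0129, edgeR) and PCDH17 (2.54, 0.403, 0.0024). It was negative for PCDH10 (−1.67, adjusted p = 0.00245), CDH12 (−1.79, 0.0386), PCDH20 (−1.59, 0.0483), CDH24 (−1.31, 0.0285) and CDH8 (−0.97, 0.0186). In CDH8 neither effect had passed on its own. The number called ran from 2, without the parental library of experiment 3, to 11, without STAG2 KO clone 5 of experiment 2, and was 3 without the WT clone library of experiment 3 and 4 without STAG1 KO library 1. PCDH10 and PCDH17 kept their call in all 19 alternative settings. Without the parental library of experiment 3 PCDH9 (2.20) lost it, and so did CDH12, CDH24, CDH8 and PCDH20. Without the WT clone library of that experiment CDH12, CDH24, CDH8 and PCDH20 lost it, and without STAG1 KO library 1 CDH24, CDH8 and PCDH20. CDH12 (−1.35 to −1.83) and PCDH20 (−1.31 to −1.63) also lost it without STAG1 KO library 7, WT clone library 2 of experiment 2, either WT clone library of experiment 1 or STAG2 KO clone 3 of experiment 2. So did CDH12 without the parental library of experiment 2 or STAG2 KO library 5 of experiment 1, and PCDH20 without WT clone library 1 or STAG2 KO clone 2 of experiment 2. CDH24 also lost its call without STAG1 KO library 5 or WT clone library 1 of experiment 2.

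As a gauge of variation with no gene knocked out, the WT clone (5 libraries) was compared with the parental line (3 libraries) over experiments 1 to 3. No member of 21 tested was called by edgeR, which called 2.75% of 14521 genes (1.74% higher, 1.01% lower), and 6 members had an unadjusted p under 0.05. DESeq2 called 1 member, and edgeR without the filter on low counts 2. Leaving out any 1 parental library, or the WT clone library of experiment 3, gave 1 member called. The largest log2 differences with such a p were those of CDH6 (0.80, adjusted p = 0.0627) and CDH10 (0.79, adjusted p = 0.0911).

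Deletion of PRC2 subunits in experiment 2 addressed how the members respond when Polycomb silencing is impaired. In both EZH2 KO and SUZ12 KO clones N-cadherin fell steeply, CDH6, CDH24 and 4 protocadherins fell, and PCDH8 and PCDH19 rose from low levels. Of 26 members that passed the filter 14 were called in EZH2 KO, 7 higher and 7 lower, where 15.7% of 15130 genes were called, 12% higher and 3.69% lower. In SUZ12 KO 15 were called, 8 higher and 7 lower, where 20.6% of genes were called, 14.7% higher and 5.87% lower. Both comparisons use the same 3 controls, so their values are given side by side and their overlap is not counted as a result. The 7 higher in EZH2 KO include CDH13, CDH20, PCDH1 and PCDH15, and the 8 higher in SUZ12 KO include these and CDH3. These members passed the filter on low counts only through the libraries in which they were high, so they had to differ, and no p is given for them. The median log2 fold change over the 26 members was 0.50 in EZH2 KO and 0.41 in SUZ12 KO, and over all genes tested 0.037 and 0.0088. These medians, and the counts called and called higher, include the members that had to differ, so they are not read as a shift of the members. Apart from those, PCDH8, PCDH12 and PCDH19 were called higher in EZH2 KO, and PCDH8, PCDH19 and CDH23 in SUZ12 KO.

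CDH2 was at 142, 147 and 126 CPM in both WT clone libraries and the parental library, at 12.7, 13.9 and 18.4 CPM in EZH2 KO clones 1 to 3 and at 13.9, 4.74 and 14.0 CPM in SUZ12 KO clones 1 to 3. All 6 KO libraries lay far below all 3 controls, and the log2 fold changes were −3.18 (standard error 0.384, adjusted p = 0.000416) and −3.65 (0.393, 0.000148) by edgeR's quasi-likelihood test, as for all values in the paragraphs on PRC2. CDH6 (K-cadherin, of kidney and neural crest) was at 13.8, 14.1 and 6.62 CPM in the controls, 2.75, 4.32 and 2.48 CPM in EZH2 KO and 2.56, 1.74 and 2.87 CPM in SUZ12 KO, with no overlap (log2 fold changes −1.83 and −2.25, adjusted p = 0.00831 and 0.00216). CDH24 was at 67.1, 57.2 and 75.3, 32.7, 21.1 and 25.3 and 24.5, 20.03 and 21.3 CPM in the same order (log2 fold changes −1.31 and −1.58, adjusted p = 0.000826 and 0.000207). CDH11, the type II cadherin with the highest level, was not called in either (log2 fold changes −0.24 and −0.43).
The protocadherins that fell did so in every KO clone. PCDH10 was at 71.6, 70.0 and 70.1 CPM in the controls, 34.9, 31.4 and 28.3 CPM in EZH2 KO and 29.6, 27.9 and 31.4 CPM in SUZ12 KO (log2 fold changes −1.14 and −1.23, adjusted p = 0.000293 and 0.000142). PCDH7 was at 467, 483 and 416, 229, 257 and 217 and 193, 134 and 266 CPM in the same order (−0.94 and −1.18, adjusted p = 0.0453 and 0.013). PCDH18 fell from 24.01 ± 5.47 CPM (SD, n = 3) to 8.36 ± 2.84 and 8.81 ± 3.20 CPM (−1.50 and −1.42, adjusted p = 0.0284 and 0.0276), and PCDH20 from 14.4 ± 2.74 to 4.46 ± 1.91 and 5.204 ± 0.722 CPM (−1.67 and −1.44, adjusted p = 0.00723 and 0.0112). The groups of none of these 4 genes overlapped. The call of PCDH7 in EZH2 KO was lost without any 1 control, any 1 EZH2 KO clone, SUZ12 KO clone 1 or STAG2 KO clone 3, which enter the same fit (−0.89 to −1.02), and in SUZ12 KO without clone 2 (−0.97). The call of PCDH18 was lost without either WT clone library in both comparisons, without EZH2 KO clones 2 or 3 (−1.28 and −1.50) and without SUZ12 KO clones 1 or 2 (−1.36 and −1.22).

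PCDH8 and CDH13 had the largest rises among members above the floor in the controls. PCDH8 was at 1.80, 1.91 and 2.69 CPM in the controls, 43.2, 15.3 and 46.3 CPM in EZH2 KO clones 1 to 3 and 45.1, 59.2 and 44.2 CPM in SUZ12 KO clones 1 to 3, with EZH2 KO clone 2 the lowest KO library and still above all controls (log2 fold changes 4.05 and 4.55, adjusted p = 0.000189 and 7.67e-05). CDH13 (T-cadherin, anchored by a lipid and without a cytoplasmic part) was at 0.273, 0.554 and 0.269 CPM, 3.82, 17.2 and 4.15 CPM and 4.87, 9.34 and 6.72 CPM in the same groups. Clone 2 of EZH2 KO was the highest, and the log2 fold changes were 4.54 and 4.27, given without a p for the reason above. Without that clone the value for EZH2 KO was 3.45. CDH13 shares 2354 exonic bases with CDH13-AS2 on the opposite strand.
Among the delta-1 and delta-2 members that rose, PCDH1 was at 0.382, 0.185 and 0 CPM in the controls and 2.03, 2.43 and 1.67 CPM in EZH2 KO. In SUZ12 KO it was at 2.75, 1.12 and 0.975 CPM (log2 fold changes 3.42 in EZH2 KO and 3.08 in SUZ12 KO). Its value without the WT clone library 1 was 4.44 and 4.10, and without the parental library 2.81 and 2.48, where the call was lost. The call was lost too without the WT clone library 2 (3.38 and 3.05), without EZH2 KO clones 1 or 2 (3.42 and 3.27) and without SUZ12 KO clone 1 (2.45). PCDH19, known for its link to epilepsy, was at 1.42, 0.615 and 0.484, 3.82, 2.49 and 2.86 and 3.91, 2.73 and 4.39 CPM (1.87 and 2.14, adjusted p = 0.0335 and 0.0146). Neither gene overlapped between controls and KO clones. The calls of PCDH19 were lost without the WT clone library 2 or the parental library in both comparisons, and in EZH2 KO without any 1 EZH2 KO clone or SUZ12 KO clone 1 (1.58 to 1.997 in EZH2 KO, 1.85 and 1.95 in SUZ12 KO).
CDH20, a type II cadherin, had 3, 2 and 1 counts in the controls, so its change is given as a ratio of summed counts per library size, with an interval for counting error only. It was at 3.86, 1.05 and 1.38 CPM in EZH2 KO and 2.41, 1.21 and 1.95 CPM in SUZ12 KO, a ratio of 18.99 (95% interval 8.49 to 52.7) and 16.3 (95% interval 7.25 to 45.3) to the controls. PCDH15, the partner of CDH23 in the tip link, was at 0 in all 3 controls, at 0.724, 0.553 and 0.955 CPM in EZH2 KO and at 1.98, 1.48 and 0.488 CPM in SUZ12 KO, which is at least 4.38-fold and 7.73-fold higher, set against a floor of 3 counts per library. CDH23 itself was at 38.2, 36.1 and 43.7 CPM in the controls, 99.3, 76.2 and 109 CPM in EZH2 KO and 102, 185 and 90.01 CPM in SUZ12 KO, above all controls in every clone, and was called in SUZ12 KO (1.70, adjusted p = 0.0206) and not in EZH2 KO (1.29, adjusted p = 0.0749). Its call in SUZ12 KO was lost without clone 2 (1.30) and without any 1 control (1.62 to 1.77).

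Members known from endothelial and epithelial cells were followed as well. PCDH12, a protocadherin of endothelial cells, was at 0.654, 0.985 and 0.215 CPM in the controls, 4.88, 8.80 and 3.68 CPM in EZH2 KO and 2.61, 1.97 and 3.69 CPM in SUZ12 KO, called in EZH2 KO (3.25, adjusted p = 0.0182) and not in SUZ12 KO (2.17, 0.0695). Its call was lost without the WT clone library 1 (3.27), the parental library (2.82) or EZH2 KO clone 2 (2.80). CDH5 (VE-cadherin of endothelium) was at 0.382, 0.677 and 0.269, 1.26, 0.332 and 1.05 and 1.40, 1.25 and 1.19 CPM and was called in neither (adjusted p = 0.294 and 0.098). CDH3, an epithelial type I cadherin, had 3 counts in all controls together and was at 1.06, 2.24 and 0.704 CPM in SUZ12 KO, a ratio of 24.5 (95% interval 8.10 to 121). Its call was lost without any 1 control or SUZ12 KO clones 1 or 2. In EZH2 KO CDH3 was at 0.483, 0.664 and 0.334 CPM and was not called.
Markers of those cell types moved in the same libraries. The 6 endothelial markers summed to 1.08 to 1.29 CPM in the controls, 3.71 to 5.73 CPM in EZH2 KO and 4.55 to 9.03 CPM in SUZ12 KO. CLDN5 and PECAM1 were called higher in both, TEK had at most 2 counts in any of these libraries and TIE1 at most 5. The 6 epithelial markers summed to 0.308 to 0.592 CPM in the controls, 3.93 to 6.92 CPM in EZH2 KO and 6.32 to 9.54 CPM in SUZ12 KO, with ESRP1 called higher in both, while KRT5 had at most 1 count. CDH1, the defining epithelial cadherin, stayed at 0 to 10 counts. CLDN5, PECAM1 and ESRP1 passed the filter on low counts only through EZH2 KO and SUZ12 KO libraries. Their calls are not counted as a result. The part of the markers of both cell types in the result was not tested.

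**Figure D4:**
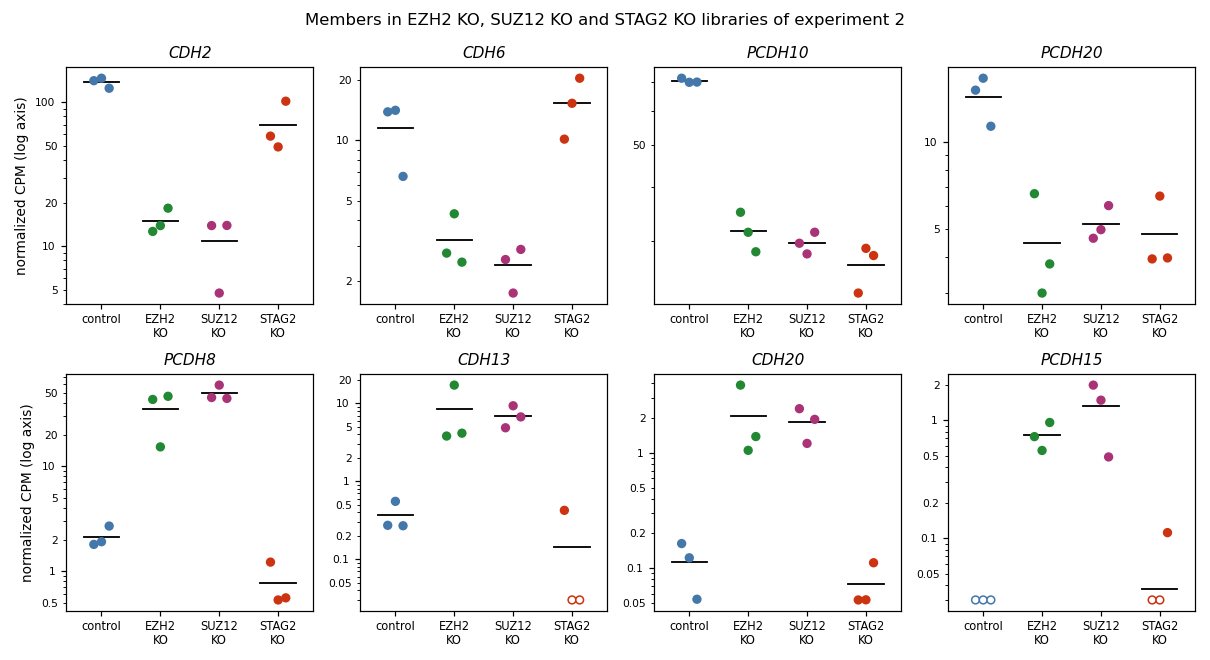
Normalized CPM (log axes) of 8 members in the single libraries of experiment 2, by group, with a black line at each mean and open points drawn at 0.03 for libraries at 0. CDH2 and CDH6 lie lower in EZH2 KO and SUZ12 KO than in controls and STAG2 KO, PCDH10 and PCDH20 lie lower in the KO groups than in controls, and PCDH8, CDH13, CDH20 and PCDH15 lie high in EZH2 KO and SUZ12 KO.

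EZH2 KO and SUZ12 KO were compared with each other as a contrast within the fit over all groups of experiment 2, in which the controls enter the filter and the estimate of the spread. None of the 26 members was called by edgeR, and none had an unadjusted p under 0.05. Of all 15130 genes 1 was called (0.00661%), EZH2 itself. SUZ12 was not called, though it averaged 52.7 CPM in EZH2 KO and 15.9 CPM in SUZ12 KO. The contrast thus missed a deleted gene, and the lack of called members does not show that both knockouts are alike. DESeq2 called no member either, and 22 genes in all. The log2 difference of EZH2 KO from SUZ12 KO was 0.47 (standard error 0.366) for CDH2, −0.51 (0.368) for PCDH8 and 1.07 (0.715) for PCDH12.

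PRC2 KO clones (the mean of EZH2 KO and SUZ12 KO) were compared with the STAG2 KO clones of experiment 2 as a contrast within the same fit. Of 26 members 16 differed, 11 higher and 5 lower in PRC2 KO, where 29.7% of 15130 genes were called, 15.9% higher and 13.8% lower. PCDH8 was at 43.2, 15.3, 46.3, 45.1, 59.2 and 44.2 CPM in the 6 PRC2 KO libraries and 0.557, 1.22 and 0.532 CPM in STAG2 KO clones 2, 3 and 5 (log2 fold change 5.77, standard error 0.465, adjusted p = 1.39e-05). CDH13 was at 0, 0.424 and 0 CPM in the STAG2 KO clones (log2 fold change 5.71, standard error 1.002), of which clones 2 and 5 were at 0, so the fitted value rests on clone 3. Without clone 3 it was 10.21, fitted against libraries at 0 and so no bound on the change. CDH20 and PCDH15 had 4 and 2 counts in the 3 STAG2 KO libraries together and were higher in PRC2 KO by a ratio of 27.6 (95% interval 10.6 to 102) and 29.3 (95% interval 7.96 to 245). Both counts of PCDH15 were in STAG2 KO clone 2. CDH13, CDH20 and PCDH15, and PCDH1, CDH5 and CDH15 below, are among the 11 higher. No p is given for them for the reason above, and since the 11 include them, that count is not read against the share of all genes.
CDH12 and CDH23, lower in STAG2 KO, were higher in PRC2 KO than in STAG2 KO by 2.29 and 2.51 in log2 (adjusted p = 0.00037 and 0.00158). PCDH1 (3.46), CDH4 (1.70) and CDH8 (0.60) were also higher, and CDH5 (2.41) and CDH15, the M-cadherin of muscle (1.79), with some overlap of the groups. The adjusted p was 0.00634 for CDH4 and 0.0116 for CDH8. Without STAG2 KO clone 5 the values of PCDH1, CDH5, CDH15 and CDH23 rose to 4.93, 3.24, 2.96 and 3.13. The call of CDH15 was lost without any 1 control, EZH2 KO clones 2 or 3, SUZ12 KO clones 1 or 2 and STAG2 KO clones 2 or 3 (1.43 to 1.80), that of CDH5 without STAG2 KO clones 2 or 3 (2.30 and 1.965), and that of CDH8 without STAG2 KO clone 2 (0.52).
Lower in PRC2 KO than in STAG2 KO were PCDH9 (log2 fold change −2.74, standard error 0.276, adjusted p = 5.35e-05), PCDH17 (log2 fold change −1.78, standard error 0.183, adjusted p = 6.13e-05), CDH2 (log2 fold change −2.42, standard error 0.297, adjusted p = 0.000187) and CDH6 (log2 fold change −2.44, standard error 0.312, adjusted p = 0.000246), each without overlap. In PRC2 KO libraries PCDH9 ran from 5.94 to 12.9 CPM and PCDH17 from 42.5 to 78.3 CPM, and neither was called against the controls in EZH2 KO or SUZ12 KO. CDH3 was called lower as well (−2.49, adjusted p = 0.0361), and the value was 0.03 without STAG2 KO clone 5. Its call was also lost without any 1 EZH2 KO clone, SUZ12 KO clones 1 or 3, or the WT clone library 1 (−2.34 to −2.62). The epithelial markers of STAG2 KO clone 5 summed to 8.73 CPM, the highest of the 5 STAG2 KO libraries, with ESRP1 at 7.66 CPM, and their part in this result was not tested.
PCDH10, PCDH18, PCDH20, CDH24 and PCDH7 were not called between PRC2 KO and STAG2 KO. The log2 differences were 0.24 for PCDH10 (standard error 0.114), −0.35 for PCDH18 (0.343), 0.03 for PCDH20 (0.293), 0.27 for CDH24 (0.156) and −0.38 for PCDH7 (0.242).

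The partners of cadherins at the membrane were followed by a list of 11 catenins and linked proteins, chosen by their function. In STAG2 KO cells 9 were tested and 3 called, where 12.2% of all genes were called. CTNND2 (delta-catenin of neurons) was called higher, with 34 and 401 counts in the KO libraries of experiment 1, 3 to 23 in those of experiment 2 and 0 to 13 in the controls. VCL (vinculin, which ties the junction to actin; log2 fold change −0.64, adjusted p = 0.00792, edgeR) and AFDN (afadin; −0.69, 0.0479) were called lower. VCL (−0.50, 1.23e-05, limma) and AFDN (−0.35, 0.00205) were the 2 of 8 called after siSTAG2, both lower, where 20.5% of all genes were called. In STAG1 KO, AFDN was the 1 of 8 called, and higher (1.13, 0.0268, edgeR), where 5.27% of all genes were called.
In EZH2 KO and SUZ12 KO, where 15.7% and 20.6% of all genes were called, CTNND2 rose from 0 to 5 counts per control library to 62 to 399 and 222 to 259 counts. VCL fell (log2 fold changes −1.26 and −1.45, adjusted p = 0.00111 and 0.000356, edgeR). SUZ12 KO also had JUP (plakoglobin) higher (0.63) and CTNNA1 (alpha-catenin) lower (−0.76). CTNND2 differed without any knockout too, lower in the WT clone (0 or 1 count per library) than in the parental line (5 to 13 counts). Each time CTNND2 passed the filter on low counts only through the libraries in which it was high. No p is given for it, and its calls are not counted as a result. CTNNB1, the beta-catenin that binds classical cadherins directly, was called in no comparison.
The same shares of all genes apply to the counts of 6 factors known to repress E-cadherin. SNAI2 (Slug) was the 1 of 5 tested that was called in STAG2 KO cells, and lower (−2.10, adjusted p = 0.00641, edgeR). After siSTAG2 TWIST1 was the 1 of 4 (−0.90, adjusted p = 4.45e-06, limma), also lower, and in STAG1 KO ZEB1 the 1 of 5 (−2.45, adjusted p = 0.0401, edgeR), lower. In EZH2 KO and SUZ12 KO all 6 were tested, TWIST2 and ZEB1 were called higher and ZEB2 lower. TWIST2 passed the filter on low counts only through these KO libraries, and its calls are not counted as a result. ZEB1 went from 3.55 CPM on average in the controls to 23.1 and 28.6 CPM (2.73 and 3.03, adjusted p = 0.0427 and 0.0224).

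The isogenic pairs asked whether members move likewise in other Ewing sarcoma lines. With 1 library per arm there is no replicate check and no test, and intervals cover counting error only. STAG2 was at 294 CPM in SK-N-MC WT and 186 CPM in SK-N-MC STAG2 KO cells, and at 87.2 CPM in A4573 STAG2 KI and 33.5 CPM in A4573 WT cells. In SK-N-MC 17 of 27 members with at least 10 counts in the pair differed by more than 2-fold, 6 higher and 11 lower without STAG2, as did 21.6% of 16413 genes, 10.3% higher and 11.3% lower. In A4573 10 of 25 did, 2 higher and 8 lower without STAG2, as did 22% of 16124 genes, 7.45% higher and 14.5% lower.
In SK-N-MC PCDH7 went from 57.8 to 5.0001 CPM (log2 ratio −3.51). PCDH17, which rose in A673 cells, went from 30.1 to 8.25 CPM (−1.86), and CDH8 from 20.7 to 6.09 CPM (−1.76). PCDH15 had 22 counts with and 1 count without STAG2, a CPM ratio of 0.0493 (95% interval 0.00120 to 0.305), and CDH26 had 19 and 3, a ratio of 0.171 (95% interval 0.0325 to 0.582).
Higher without STAG2 were CDH6, from 3.91 to 16.2 CPM (2.03), and PCDH9, from 6.80 to 25.7 CPM (1.91), the second in the direction seen in A673 cells. E-cadherin (CDH1) had 0 counts in WT and 13 in STAG2 KO cells, a CPM ratio with a lower 95% limit of 3.31 and no upper limit. The epithelial markers summed to 2.35 CPM in SK-N-MC WT and 11.3 CPM in SK-N-MC STAG2 KO cells, with EPCAM at 0.824 and 9.47 CPM. The blood marker PTPRC was at 3.02 and 58.8 CPM, while CD3E and SPI1 stayed under 1 CPM. The part of these in the differences was not tested.
In A4573, set as cells without against cells with STAG2, CDH19, a type II cadherin of Schwann cells, had 1 count without and 60 with STAG2, a CPM ratio of 0.0170 (95% interval 0.000423 to 0.0984). PCDH12 was at 3.26 CPM without and 23.9 CPM with STAG2 (−2.85), PCDH1 at 0.423 and 3.16 CPM (−2.73), and CDH3 at 0.293 and 1.44 CPM (−2.07).
CDH23 was lower without STAG2 here too, at 7.004 against 27.0 CPM (−1.94), and in SK-N-MC at 29.5 against 44.7 CPM (−0.60). CDH5 had 10 counts without and 1 with STAG2, a ratio of 10.2 (95% interval 1.45 to 443). PCDH18 was at 9.61 CPM without and 2.71 CPM with STAG2 (1.80), the reverse of its direction in A673 cells. PCDH9 was at 14.6 and 25.4 CPM (−0.79). Of the members lower without STAG2 in A673, PCDH10 and CDH24 differed little in either line, with log2 ratios of −0.18 and 0.10 in SK-N-MC and −0.04 and −0.03 in A4573. CDH12 (−1.06 in SK-N-MC and −0.74 in A4573) and PCDH20 (−1.04 and −1.27) were lower without STAG2 in both lines. PCDH7 was lower in A4573 too (−0.94), and PCDH18 in SK-N-MC (−0.64). PCDH8 was lower in SK-N-MC (−1.55), and CDH2 was higher in A4573 (0.64). In A4573 PCDH8 had 18 counts without and 11 with STAG2, a CPM ratio of 1.67 (95% interval 0.747 to 3.91), which includes no change.

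**Figure D5:**
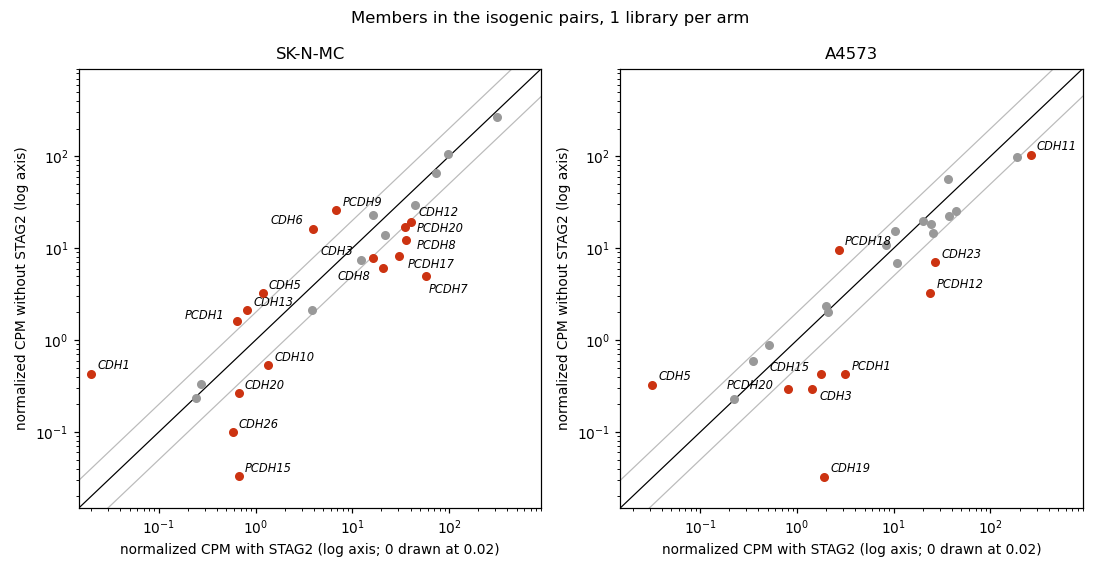
Normalized CPM of each member without STAG2 (y, log axis) against that with STAG2 (x, log axis) in SK-N-MC and A4573 cells, 1 library per arm, with the line of equal level in black and 2-fold differences in grey, and members past 2-fold in red. In SK-N-MC cells PCDH7 lies far below the line and PCDH9 and CDH6 above it, and in A4573 cells CDH19 and PCDH12 lie below it and PCDH18 above.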

How the data were processed

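RNA was extracted by the authors and sequenced as non-directional oligo-dT libraries, and the reads were aligned to hg38 with TopHat 2.0.0, SAMtools 0.1.16 and Bowtie 0.12.7 (per the methods and the submitters' processing notes). The methods name no separate protocol for the knockdown. Its column names carry the tags FWD and GRCh38 and its rows are Ensembl identifiers, so whether it was prepared likewise is not known here. For the A673 clones and isogenic lines the authors deposited counts of reads per gene symbol, without normalization. The counting program is not given in the sources used here. For the knockdown the authors deposited a signal, reads divided by a factor per library, from which whole reads were recovered for 100% of values (within 0.001). No per-sample column was left unused (0). Spike-in rows of the knockdown (92, all at 0) were left out.

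Libraries were grouped by genotype from the labels. The STAG2 KO columns 5 and 24 of experiment 1 and the STAG1 KO columns could be matched to their group, not to a single clone of the labels. No label says that libraries of a control group come from separate cultures, so p-values measure the spread between libraries. The members, gene lists and tests were chosen with earlier results of these data known.

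edgeR 4.0.16 in R 4.3.3 was used for counts (TMM, filterByExpr with the design, glmQLFit and glmQLFTest), with the experiment as a term where several were combined. The knockdown was analysed with limma 3.58.1 (lmFit, eBayes with trend) on log2(value + 1), keeping genes whose mean reached 10. A call is a p under 0.05 after Benjamini-Hochberg adjustment across every gene tested. For isogenic pairs log2 ratios of CPM used a prior count of 2, where both libraries together held 10 counts or more, and CPM ratios from low counts carry exact 95% binomial intervals (conditional on the sum of both counts). Lower bounds of a fold against libraries at 0 in replicated comparisons used a floor of 3 counts per library. Members were named when called in a replicated comparison, when among the 5 highest in CPM per kb, or when among the 6 largest changes past 2-fold in a pair. Other genes and members named beside these were chosen after their values were seen. Positions and exon lengths are from GENCODE 44 (GRCh38), promoter windows from RefSeq (GRCh38.p14), read in Python 3.11.15. The fits were tested on simulated data. Alternatives were DESeq2 1.42.0 and its size factors, other filters and pseudocounts, single experiments, the WT clone as the only control, a replicate block, and each library left out in turn.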

Additional observations from a re-analysis of the deposited data

Results flagged for a closer look

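In groups of 4 to 10 libraries, 72 combinations of a member and a group were examined for a single library far from the rest, and 7 had one. Chance gives about 1 in 20 for values with a normal spread. Members with counts near 0 do not have that spread, so the 7 are not set against this rate. In the 5 STAG2 KO libraries PCDH17 reached 312 CPM in clone 5 of experiment 2, against 143 to 189 CPM in the others. In the same library CDH3 stood at 12.2 CPM and PCDH1 at 0.372 CPM, each the highest of its group. PCDH8 was highest in STAG2 KO clone 3 of experiment 2 (1.22 CPM), CDH20 in the STAG2 KO library 5 of experiment 1 (1.84 CPM) and PCDH15 in STAG2 KO clone 2 of experiment 2 (0.111 CPM, 2 counts). In the 6 controls of experiments 1 and 2 CDH4 was highest in the parental library of experiment 2, at 51.7 CPM.

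The responses to STAG2 KO and to STAG1 KO differed by a test of the difference for 7 members, with log2 differences of 2.77 for PCDH9, 2.54 for PCDH17, −1.79 for CDH12, −1.67 for PCDH10, −1.59 for PCDH20, −1.31 for CDH24 and −0.97 for CDH8. A change past 2-fold opposite to that of A673 cells was seen for PCDH17 in SK-N-MC (log2 ratio −1.86 without against with STAG2) and for PCDH18 in A4573 (1.80). These differences between lines were not tested, since each arm is 1 library.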

How the results depend on the processing

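For members called in a replicated comparison, 1201 fold changes were recomputed under the alternatives. Of these 1066 kept their direction and their call, 134 kept the direction and lost the call, and 1 reversed, that of CDH3 between PRC2 KO and STAG2 KO clones, which ran from −3.02 to 0.035 with 1 library left out, and had the latter value without STAG2 KO clone 5 of experiment 2. Among counts of members called, experiment 2 alone gave 5 for STAG2 KO (11 with both), DESeq2 gave 2 for STAG1 KO (1 by edgeR) and 1 for the WT clone against the parental line, and no filter gave 2 for the latter (0 with it). The cause was not tested. Leaving out 1 library at a time gave 9 to 15 called for STAG2 KO, 9 to 19 for EZH2 KO (9 without EZH2 KO clone 2), 10 to 20 for SUZ12 KO, 0 to 0 for EZH2 KO against SUZ12 KO, 13 to 19 for PRC2 KO against STAG2 KO, 8 to 10 for siSTAG2, 0 to 1 for STAG1 KO, 2 to 11 for the difference of STAG2 KO and STAG1 KO effects, and 0 to 1 for the WT clone against the parental line. The highest values for STAG2 KO, EZH2 KO and SUZ12 KO were all without STAG2 KO clone 5 of experiment 2. In the knockdown, same-numbered libraries deviated together with correlations of only 0.0040 to 0.037, each above the highest with another number. A replicate block called 10 members, as without it, and 2881 genes in all, against 2476 without it. The labels do not say whether these libraries were paired. For EZH2 KO and SUZ12 KO clones of the same number the correlations were −0.14, 0.38 and 0.32, and a block for the clone number called 0 members. Tests of recovered reads with edgeR called 11 of the knockdown's members.

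Library size limits the members near the floor of 3 counts, STAG1 KO was compared with only 2 controls, and the clones of each genotype derive from 1 WT clone.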

Other observations

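Members of the type II group on the short arm of chromosome 5 had unlike levels in A673 controls of experiments 1 and 2. CDH12 ran from 24.4 to 43.6 CPM and CDH6 from 4.58 to 14.1 CPM, while CDH10 ran from 1.35 to 5.72 CPM and CDH9 and CDH18 were at 0. CDH10 differed between experiments, at 5.55, 5.72 and 2.60 CPM in the controls of experiment 1 (both WT clone libraries and the parental library) and 1.42, 1.72 and 1.35 CPM in those of experiment 2. Within experiment 1 it was lower in both STAG2 KO libraries, at 0.237 and 0.0577 CPM (log2 fold change −4.95, adjusted p = 0.0115, edgeR), and in experiment 2 the STAG2 KO clones 2, 3 and 5 stood at 0.0557, 0.106 and 3.83 CPM, on both sides of the controls (adjusted p = 0.952).

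PCDH1 was likewise at 2.54, 2.73 and 0.832 CPM in the controls of experiment 1 and had 1 and 0 counts in the STAG2 KO libraries 5 and 24 of that experiment, while in experiment 2 it was too low for the test in STAG2 KO and control libraries. In the knockdown PCDH1 stood at 11.4, 13.8 and 11.5 normalized reads in mock and 1.11, 3.71 and 0.966 in siSTAG2 libraries, below the minimum for the test and without overlap. CDH7, a type II cadherin, was higher than all controls in STAG2 KO clones 2 and 5 of experiment 2 (15.7 and 13.5 CPM) and within their range in clone 3 (5.94 CPM), and was called in no comparison. These values were chosen after they were seen.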
